A study of Mus musculus with 6 samples.

Results

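The CXC chemokines are described here by 8 genes of the mouse family, taken from the count table by their gene symbols: Cxcl1, Cxcl2, Cxcl3, Cxcl9, Cxcl10, Cxcl11, Cxcl13 and Cxcl16. They account for 20 of the 142567 transcripts and for 8 of the 55254 genes in the table. Bone marrow derived macrophages (BMDMs) were grown for 10 days in medium conditioned by L929 cells, a fibroblast line that secretes the macrophage growth factor CSF1, and were then exposed to LPS, the bacterial ligand of TLR4, at 100 ng/ml for 4 hrs. The 3 control libraries came from hnRNPDfl/fl cells, in which the gene carries loxP sites and is intact. The 3 M-Δx3,4 libraries came from LysCre+hnRNPDfl/fl cells, in which a Cre recombinase expressed from the lysozyme locus of myeloid cells removes exons 3 and 4 of hnRNPD, the gene of the RNA-binding protein AUF1. All 6 were of the C57BL/6J strain and all received LPS. The study's methods give an age of 6 to 8 weeks for the mice whose bone marrow was taken, and of 8 to 16 weeks for its experiments as a whole. No untreated library was analysed, so the values say nothing of induction by LPS.

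Chemokines are small secreted proteins that direct the migration of leukocytes, and the CXC family is named for a pair of conserved cysteines with 1 residue between them. CXCL1, CXCL2 and CXCL3 bind CXCR2 and attract neutrophils. CXCL9, CXCL10 and CXCL11 are induced by interferons, bind CXCR3 and attract activated T cells and NK cells. CXCL13 binds CXCR5 and draws B cells into follicles, while CXCL16 is made as a membrane protein that binds CXCR6 and is released by proteases. Macrophages produce several of them within hours of TLR4 engagement. The mRNAs of the CXCR2 ligands are known for AU-rich elements in the 3′ UTR, the class of sequence that AUF1 binds, and the comparison asked whether their RNA levels differed when AUF1 was disrupted.

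The number of AU-rich elements differed between the genes by role. The motif searched was the pentamer ATTTA, written as DNA, on the transcript strand, with overlapping matches counted, in the 3′ UTRs annotated by GENCODE on GRCm38, together with the longer nonamer TTATTTATT, which contains it. Among 8778 tested genes with such a UTR, 70.4% held at least 1 pentamer and 7.85% at least 1 nonamer, and the median gene had 2 pentamers. The 3′ UTR of Cxcl2 held 11 pentamers and 4 nonamers in 734 bases, that of Cxcl1 held 7 and 2 in 592 bases, and that of Cxcl3 held 5 and 1 in 645 bases. Of the genes whose 3′ UTR was within 20% of that length, 0.196% had as many pentamers as Cxcl2, 0.537% as many as Cxcl1 and 2.25% as many as Cxcl3. The other 5 genes held no nonamer. Cxcl9 had 3 pentamers in 2452 bases and Cxcl10 had 2 in 729 bases, numbers reached by 66.5% and 32.7% of genes of like length. For Cxcl10 and Cxcl16 the transcripts ENSMUST00000038816 and ENSMUST00000019064, the latter with 2 in 1421 bases, were used. Those with the highest counts, ENSMUST00000118006 and ENSMUST00000126391, had 3 in 996 bases and 0 in 565 bases. A match describes the sequence and is no evidence of binding. To show this contrast, the stretch of 30 bases with the most pentamers is printed for the CXCR2 ligands and for a pair of the CXCR3 ligands, 5′ to 3′ on the transcript strand with the pentamers in capitals. They lie at chr5:90892607-90892636 (+) for Cxcl1, chr5:90905328-90905357 (+) for Cxcl2, chr5:90787636-90787665 (+) for Cxcl3, chr5:92323050-92323079 (-) for Cxcl9 and chr5:92346936-92346965 (-) for Cxcl10, each within the 3′ UTR of its gene on GRCm38 (mm10).
Cxcl1: tcctATTTATTTAtgtATTTATTTAttcca
Cxcl2: ATTTATTTAtctatgtATTTATTTATTTAt
Cxcl3: gcatcttATTTAatgtttATTTAatatcaa
Cxcl9: aaaacttaaccaATTTAaagaacattttct
Cxcl10: gtaagactacaaATTTAagtttgtaaggac

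**Figure D1:**
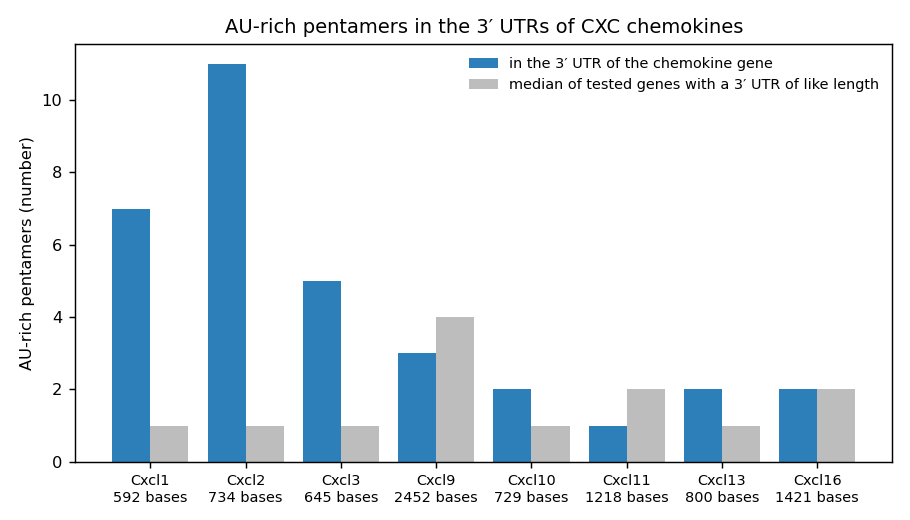
Number of AU-rich pentamers (vertical axis) in the annotated 3′ UTR of each CXC chemokine gene (blue bars, with the UTR length under each name) and the median over tested genes with a 3′ UTR within 20% of that length (grey bars), with Cxcl10 and Cxcl16 shown by ENSMUST00000038816 and ENSMUST00000019064. Cxcl1, Cxcl2 and Cxcl3 hold 7, 11 and 5 pentamers against medians of 1, while the other genes hold 1 to 3.

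The stretch of Cxcl2 had 5 pentamers, some of them overlapping, and that of Cxcl1 had 4, against 2 in Cxcl3 and 1 each in Cxcl9 and Cxcl10. Over all tested genes, 19 of the 689 with a nonamer (2.76%) and 244 of the 8089 without one (3.02%) passed the threshold on p and fold change described below. Of those with a nonamer 8 were lower and 11 higher in M-Δx3,4 BMDMs, and of those without one 172 were lower and 72 higher, a difference that was not tested. These sets were not matched for 3′ UTR length. A nonamer occurred in 4.08% of genes of like length to Cxcl1 but in 11.6% of those of like length to the longer Cxcl9. The median log2 fold changes of the genes with and without a nonamer were 0.10 and -0.01.

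The deposited values were counts of reads from the 3′ ends of transcripts (QuantSeq), one value for each 3′ UTR region, and the regions of each transcript were summed. The totals ran from 5852374 to 9008878 counts per library. These totals count a read more than once where transcripts overlap, and with only the most abundant transcript of each gene they ran from 2503213 to 3846120. The libraries of a group were not alike to the same degree: log2 levels of 4723 genes correlated least between control replicates 1 and 3 (r = 0.76) while each pair of M-Δx3,4 libraries had r = 0.95. The highest values were between libraries of different groups. Control replicate 1 had r = 0.971 with M-Δx3,4 replicate 3, and control replicate 2 had r = 0.965 with M-Δx3,4 replicate 2. The source of this likeness was not tested. Hnrnpd itself, by its p37 transcript (ENSMUST00000072750), had 177.8, 104.2 and 69.6 normalized counts in the control and 52.8, 12.6 and 16 in the M-Δx3,4 libraries (log2 fold change -2.11, standard error 0.54). The p45 transcript (ENSMUST00000172361), which had the highest mean count of the gene, had 335.9, 185.9 and 104.4 against 137.9, 124.3 and 160.5, with overlapping groups (log2 fold change -0.57, standard error 0.41). Its counted region is longer, at 5678 bases against 611 for p37. Scaled to that length (TPM), the control mean was 2.71 for p45 and 14.1 for p37. By normalized counts the order was the reverse, at 208.8 for p45 and 117.2 for p37. Reads from the 3′ ends of transcripts need not grow in number with the region, so the scaling itself can set this order. The study, which showed length-scaled values, describes the p45 RNA as poorly expressed in macrophages. The 7 macrophage markers examined (Adgre1, Cd68, Csf1r, Itgam, Lyz2, Cd14 and Mertk) were all detected in every library. The labels do not say whether the libraries of a group came from separate cultures or animals, so the p-values measure the spread between these libraries. In bulk RNA a change in the share of cells that make a transcript and a change in the RNA per cell cannot be told apart.

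All 8 genes had a transcript that passed the filter on low counts, and 17 of the 20 transcripts did. Of the other 3, the Cxcl3 transcript ENSMUST00000201840 and the Cxcl9 transcript ENSMUST00000202404 had 0 counts in every library and the Cxcl2 transcript ENSMUST00000202317 had 1 count in all. Below, the transcript with the highest mean count stands for each gene. The threshold was an unadjusted p under 0.05 together with a change of 1 or more, up or down, on the log2 scale. Of the 8 genes 1 (Cxcl3) passed it, being lower in M-Δx3,4 BMDMs, against 3.07% of the 11875 genes tested in the same way (1.97% lower and 1.10% higher). Among transcripts it was 1 of 17, against 3.3% of 32475 (2.05% lower and 1.25% higher). By the unadjusted p alone it was again 1 of 8 genes, against 3.98% of all genes and 4.13% of all transcripts. Cxcl3 was also the single gene of the 8 whose normalized counts did not overlap between the groups, against 8.44% of all genes. It passed the filter (above 4.89 normalized counts in at least 1 library) only through control replicates 1 and 3, at 7.0 and 8.1. A gene tested only because 1 group is high tends to be called in that direction. The call of Cxcl3 and its lack of overlap therefore say little. The log2 fold change was below 0 in 6 of the 8, with a median of -0.25, against 50.5% and a median of -0.01 over all genes. In edgeR's quasi-likelihood test the adjusted p lay between 0.984 and 0.999 for all 17 transcripts, and no transcript of the 32475 tested had an adjusted p under 0.05 (1340 had an unadjusted one under 0.05). For single genes an exact permutation test of 3 libraries against 3, two-sided, was made as well, and its smallest possible p is 0.1.

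**Figure D2:**
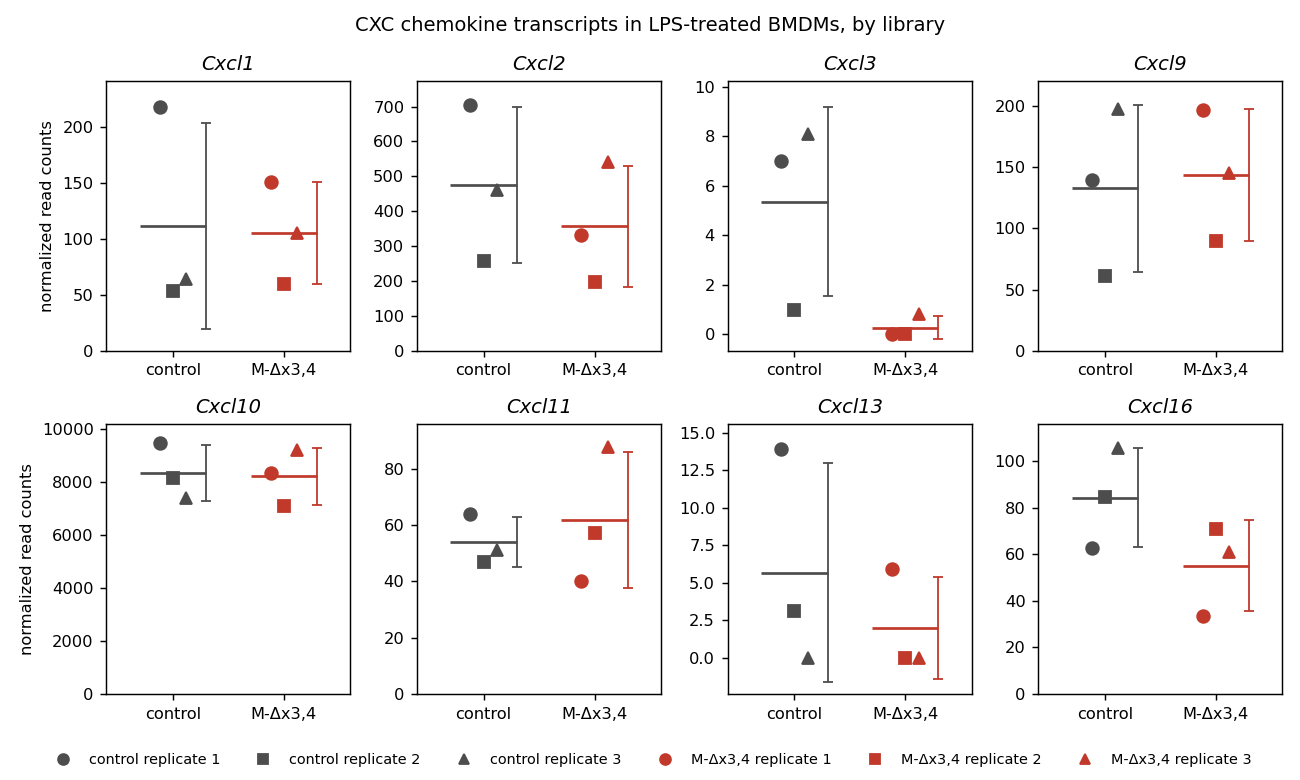
Normalized read counts (vertical axis, a separate scale in each panel) of the 8 CXC chemokine genes in the 3 control (grey) and 3 M-Δx3,4 (red) libraries, with 1 symbol per replicate number. Horizontal lines are group means and error bars 1 SD (n = 3). The groups overlap in every panel but that of Cxcl3, whose highest M-Δx3,4 library (0.8) is just under its lowest control library (1.0).

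Cxcl10 was the most abundant CXC chemokine transcript by a wide margin, at 88.7 to 94.1% of the summed normalized counts of the 8 genes. It ranked between 21 and 56 among all genes by normalized count, depending on the library. The gene lies at chr5:92346638-92348889 on the minus strand and is represented by ENSMUST00000118006. Its control libraries held 9471.4, 8128.6 and 7393.7 normalized counts and its M-Δx3,4 libraries 8323.2, 7079.8 and 9199.5. The highest library was a control and the lowest an M-Δx3,4 library, but the groups spanned nearly the same range. The means were 8331.2 ± 1053.6 in control and 8200.8 ± 1065.1 in M-Δx3,4 BMDMs (SD, n = 3), a log2 fold change of -0.02 with a standard error of 0.27 (edgeR p = 0.935, exact permutation p = 0.8). The 95% interval of the difference, from -0.61 to 0.56, corresponds to 0.66 to 1.48 times the control level. This was the narrowest interval among the 8 genes, so that a change of 2-fold or more in either direction lies outside it for this transcript. Leaving out 1 library at a time moved the value between -0.11 and 0.08. The overlapping transcripts ENSMUST00000038816 and ENSMUST00000201176 had log2 fold changes of -0.02 and -0.01.

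The other CXCR3 ligands were far less abundant. Cxcl9 (ENSMUST00000113093, chr5:92321347-92328079, minus strand) had 139.5, 61.3 and 197.2 normalized counts in the control and 196.6, 89.3 and 145.2 in the M-Δx3,4 libraries. Replicate 2 was the lowest of each group, and the highest library of each reached about the same count. The means of 132.7 ± 68.2 and 143.7 ± 53.7 gave a log2 fold change of 0.12 (standard error 0.44, 95% interval -0.82 to 1.05, edgeR p = 0.792, exact permutation p = 0.7). Its sign turned to -0.23 without control replicate 2 and to -0.17 without M-Δx3,4 replicate 1.

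Cxcl11 (ENSMUST00000077820, chr5:92359544-92365485, minus strand) is labelled a polymorphic pseudogene in the deposited table, a class of genes whose reading frame is interrupted in some strains and intact in others, and C57BL/6J mice are known to lack functional CXCL11 protein. Its RNA was present in all 6 libraries, at 63.9, 47.0 and 51.0 normalized counts in control and 40.1, 57.3 and 87.9 in M-Δx3,4 BMDMs. The controls lay close together and within the range of the M-Δx3,4 libraries, of which replicate 3 was the highest. The means were 54.0 ± 8.8 and 61.8 ± 24.2, giving a log2 fold change of 0.20 (standard error 0.41, 95% interval -0.67 to 1.07, edgeR p = 0.632, exact permutation p = 0.8), which became -0.15 without M-Δx3,4 replicate 3. A second transcript, ENSMUST00000122808, held the same counts in every library and is no separate measurement.

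Among the CXCR2 ligands Cxcl2 was the most abundant. Cxcl2 (ENSMUST00000075433, chr5:90903871-90905938, plus strand) had 703.2, 256.4 and 461.7 normalized counts in the control and 330.6, 196.1 and 541.8 in the M-Δx3,4 libraries. The control libraries differed among themselves by more than the group means did, and 2 of the 3 M-Δx3,4 libraries lay within their range. The means of 473.8 ± 223.6 and 356.2 ± 174.2 gave a log2 fold change of -0.41 (standard error 0.42, 95% interval -1.31 to 0.49, edgeR p = 0.347, exact permutation p = 0.5). The value was below 0 with each library left out, from -0.85 without M-Δx3,4 replicate 3 to -0.01 without control replicate 1, so its size rested on single libraries. ENSMUST00000200681 held the same counts in every library over a longer region, and ENSMUST00000200919, the window past the annotated end, had a log2 fold change of -0.43.

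Cxcl1 (ENSMUST00000031327, chr5:90891241-90893115, plus strand) had 217.3, 53.1 and 63.8 normalized counts in the control and 150.6, 59.2 and 104.7 in the M-Δx3,4 libraries. Control replicate 1 stood well above the other 2 controls, and all 3 M-Δx3,4 libraries lay between the lowest and the highest control. The means were 111.4 ± 91.9 and 104.9 ± 45.7, a log2 fold change of -0.09 (standard error 0.52, 95% interval -1.18 to 1.01, edgeR p = 0.87, exact permutation p = 0.9). It turned to 0.84 without control replicate 1 (unadjusted p = 0.0608 in edgeR, against an adjusted p of 0.358) and to 0.19 without M-Δx3,4 replicate 2. The window past its annotated end (ENSMUST00000201245) had the same log2 fold change of -0.09. At this spread between libraries a change of 2-fold in either direction lies within the interval.

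Cxcl3 was the gene past the threshold, at counts near the limit of detection. Cxcl3 (ENSMUST00000031326, chr5:90786103-90789600, plus strand) had 6, 1 and 7 raw counts in control and 0, 0 and 1 in M-Δx3,4 BMDMs, or 7.0, 1.0 and 8.1 against 0.0, 0.0 and 0.8 after normalization. Control replicate 2 and M-Δx3,4 replicate 3 were tied at 1 raw count and were set apart only by the library factors. The sums of 14 and 1 counts, scaled to library size, gave a ratio of control to M-Δx3,4 of 17.4 with an exact 95% counting interval from 2.65 to 736, which covers counting error only. The fitted log2 fold change of -3.73 had an unadjusted p of 0.0302 and an adjusted p of 0.984 in edgeR's test (exact permutation p = 0.1, the smallest possible). It was below 0 with every library left out, but the unadjusted p rose above the threshold without control replicate 1 (0.104), without control replicate 3 (0.106), without M-Δx3,4 replicate 1 (0.0762) and without M-Δx3,4 replicate 2 (0.0847).

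**Figure D3:**
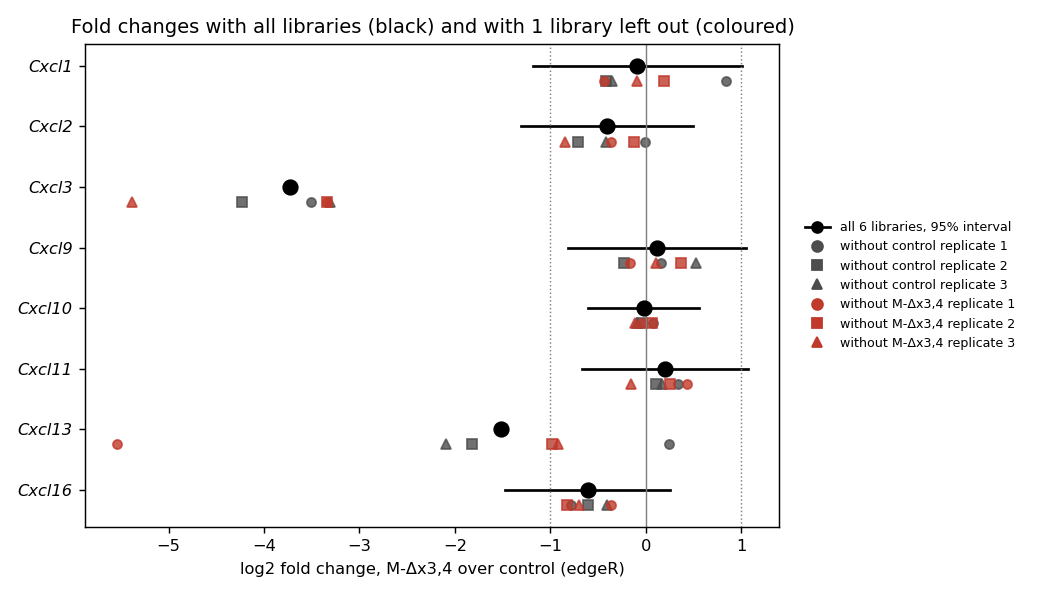
Log2 fold change of M-Δx3,4 over control BMDMs (horizontal axis, edgeR) for each CXC chemokine with all 6 libraries (black, with the 95% interval) and with each library left out in turn (coloured symbols under it). Intervals are left out for Cxcl3 and Cxcl13, whose counts were 12 or fewer in every library, and dotted lines mark a change of 1 on the log2 scale. The intervals of the other 6 genes all include 0, and the value of Cxcl13 moved from -5.54 to 0.24 with the library left out.

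Cxcl13, the B-cell chemokine (ENSMUST00000023840, chr5:95956951-95961068, plus strand), was also close to the limit of detection, with 12, 3 and 0 raw counts in the control and 6, 0 and 0 in the M-Δx3,4 libraries. Replicate 1 held most of the counts in both groups, and a library at 0 occurred in each. The normalized means of 5.7 ± 7.3 and 2.0 ± 3.4 gave a log2 fold change of -1.52 (standard error 1.53, edgeR p = 0.317, exact permutation p = 0.7). The 15 and 6 summed counts gave a ratio of control to M-Δx3,4 of 3.11 with an exact 95% counting interval from 1.14 to 9.78. That interval leaves out the spread between libraries, and the value was 0.24 without control replicate 1 and -5.54 without M-Δx3,4 replicate 1, the last past the threshold (unadjusted p = 0.04, adjusted p = 0.998 in edgeR). In that last fit only control libraries held counts, so Cxcl13 was tested through the group where it was high.

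Cxcl16, the ligand made as a membrane protein, lies apart from the others at chr11:70453983-70459984 on the minus strand. Its transcript with the highest count (ENSMUST00000126391, annotated as a target of nonsense-mediated decay) had 62.8, 84.8 and 105.6 normalized counts in the control and 33.3, 70.9 and 61.1 in the M-Δx3,4 libraries. Control replicates 2 and 3 were above all M-Δx3,4 libraries, but control replicate 1 lay below M-Δx3,4 replicate 2. The means of 84.4 ± 21.4 and 55.1 ± 19.5 gave a log2 fold change of -0.61 (standard error 0.41, 95% interval -1.48 to 0.25, edgeR p = 0.152, exact permutation p = 0.2). The value was below 0 with each library left out (-0.83 to -0.36). The protein-coding transcript ENSMUST00000019064 shared nearly all of these reads and had a log2 fold change of -0.63. The short region of ENSMUST00000154475 inside the last exon had -0.70, and passed the threshold without control replicate 1 (-1.01, unadjusted p = 0.0446, adjusted p = 0.328).

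Levels were compared between genes by the deposited TPM values, which are counts per length of the counted region, scaled to the library. Reads from the 3′ ends of transcripts need not grow in number with that length. The order by TPM is therefore no order of RNA molecules, and where it differs from the order by counts neither is settled. Cxcl10 had 400.0 to 589.0 TPM over the 6 libraries with a median of 481.0, above every other CXC chemokine in every library. Cxcl2 followed at 14 to 55.4 TPM (median 28.9) and Cxcl1 at 4.40 to 20 (median 7.34). Cxcl2 exceeded Cxcl1 in 6 of 6 libraries, although their ranges overlapped. Cxcl16 had a median of 6.03 TPM, Cxcl9 of 4.02 and Cxcl11 of 2.59. These 3 and Cxcl1 were not separated by their spread: Cxcl1 exceeded Cxcl16 in 3 of 6 libraries, Cxcl16 exceeded Cxcl9 in 5 and Cxcl9 exceeded Cxcl11 in 3. Cxcl13 (0.00 to 1.00 TPM) and Cxcl3 (0.00 to 0.598 TPM) came last, below Cxcl11 in 6 of 6 libraries for Cxcl13, and were not separated from each other. The length of the counted region enters this order: that of Cxcl9 was the longest at 2701 bases and that of Cxcl16 the shortest at 814, and by normalized counts Cxcl9 (132.7 and 143.7) lay above Cxcl16 (84.4 and 55.1) in both groups. So does the choice among transcripts that share reads. By its protein-coding transcript ENSMUST00000019064, counted over 1670 bases, Cxcl16 had a median of 2.90 TPM and came after Cxcl9. By ENSMUST00000200681, counted over 1743 bases with the same counts, Cxcl2 had a median of 16.3 TPM, and by ENSMUST00000038816 Cxcl10 had one of 597.0 TPM, which leaves both in their places. The mean TPM of Cxcl10 was 485.0 ± 92.9 in control and 488.0 ± 80.7 in M-Δx3,4 BMDMs.

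**Figure D4:**
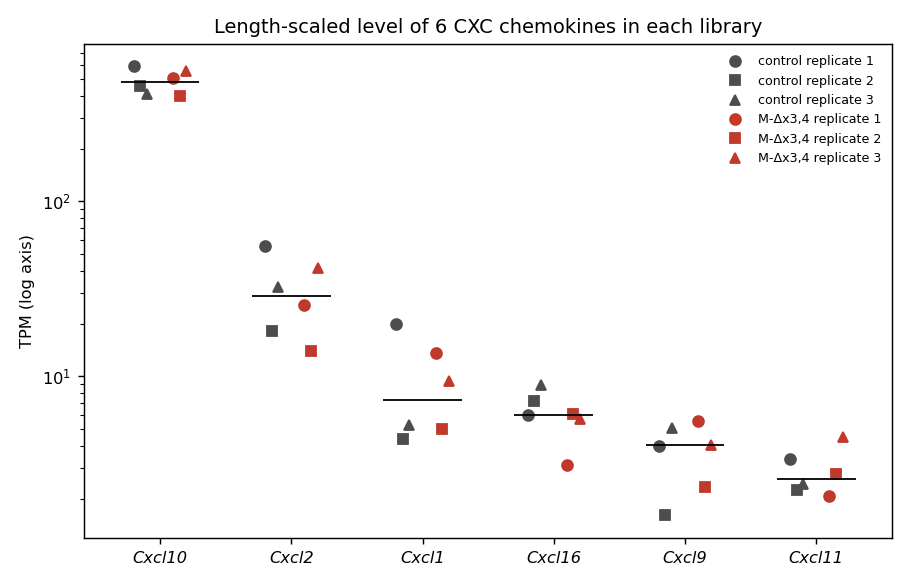
Length-scaled level (TPM, log axis) of the 6 CXC chemokines with counts in every library, ordered by the median over the 6 libraries (black line), with control libraries in grey and M-Δx3,4 libraries in red. Cxcl10 lies between 400.0 and 589.0 TPM, above all others, and the 4 genes to the right of Cxcl2 overlap.

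The makeup of the family overlapped between the groups. The CXCR2 ligands together made up 8.69, 3.60 and 6.44% of the summed counts of the 8 genes in control BMDMs, against 5.30, 3.38 and 6.38% in M-Δx3,4 BMDMs. The CXCR3 ligands made up 90.6, 95.4 and 92.3% against 94.3, 95.7 and 93.0%. Replicate 2 had the smallest share of CXCR2 ligands in each group. For every raw count of Cxcl11 there were 145 to 173 of Cxcl10 in the control and 105 to 208 in the M-Δx3,4 libraries.

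The spread between libraries was larger than counting error in most cases. For Cxcl10 the coefficient of variation was 12.6% in control and 13% in M-Δx3,4 BMDMs, against 1.16 and 1.04% from counting alone. For Cxcl1 it was 82.5 and 43.6% against 10.1 and 9.23%, and for Cxcl2 47.2 and 48.9% against 4.89 and 4.90%. The closest to counting error were the Cxcl11 control libraries, at 16.4% against 14.4%, and the M-Δx3,4 libraries of Cxcl3, whose single count gave 173% for both.

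**Figure D5:**
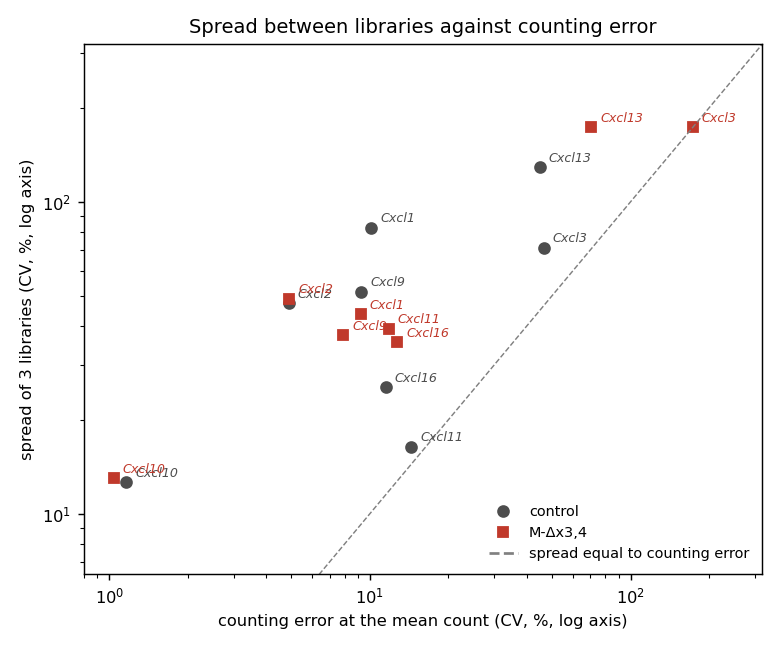
Coefficient of variation of the 3 libraries of a group (vertical axis, %, log axis) against the counting error at the mean count (horizontal axis, %, log axis) for each CXC chemokine, in control (grey circles) and M-Δx3,4 BMDMs (red squares). The dashed line marks a spread equal to the counting error. Cxcl10 lies at 12.6 and 13% with a counting error near 1%, while the Cxcl11 controls (16.4%) lie close to the line.

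Several regions of 1 gene were counted separately, and their shares showed where the reads lay. The deposited regions ran 249 bases past the annotated ends. The window past the end of Cxcl10 (ENSMUST00000201176) overlapped 76.5, 80.2 and 79.6% of the reads counted for ENSMUST00000038816 in the control and 80.4, 80.2 and 76.5% in the M-Δx3,4 libraries (exact permutation p = 0.5). The corresponding window of Cxcl1 had 40.0 to 65.4% in control and 45.9 to 55.8% in M-Δx3,4 BMDMs (exact permutation p = 0.9), and that of Cxcl2 29.4 to 39.8% and 27.5 to 41.7% (exact permutation p = 0.8). The groups overlapped in each. The window of a further Cxcl10 transcript (ENSMUST00000138169) had 147.6, 192.1 and 504.7 normalized counts in control and 214.2, 222.4 and 276.6 in M-Δx3,4 BMDMs. Its coordinates overlap the region of ENSMUST00000118006 only at the edge, but most of its reads appear to be counted there as well. In control replicate 1 it had 127 raw counts, ENSMUST00000038816 had 8022 and ENSMUST00000118006 had 8149. It is therefore no separate measurement. Control replicate 3 was the highest and control replicate 1 the lowest, and the M-Δx3,4 libraries lay between them (log2 fold change -0.24, standard error 0.42, exact permutation p = 1.0). On the opposite strand, a region of Art3 inside the Cxcl10 3′ UTR had 0 counts in all 6 libraries. The Cxcl10 reads within that interval were not counted apart, so this does not show whether the strands were separated there. Med11, on the opposite strand, overlaps the region of the Cxcl16 transcript ENSMUST00000019064 and had 22 to 32 counts per library in its longer region. It does not overlap the regions of ENSMUST00000126391, the transcript that stands for Cxcl16.

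The likeness of patterns over the 6 libraries is given as a description, since the points share library depth and normalization. Cxcl10 went with Cxcl1 (r = 0.77) and with Cxcl2 (r = 0.75) more than with the other CXCR3 ligands (0.18 with Cxcl9 and 0.47 with Cxcl11), and Cxcl1 with Cxcl2 at 0.69. Cxcl16 ran against Cxcl1 (r = -0.66). Among 4717 genes with a mean of at least 50 normalized counts, the pattern most like that of Cxcl1 was Ptpn11 (r = 0.99), of Cxcl2 Sike1 (1.00 after rounding), of Cxcl9 Rab11a (0.98), of Cxcl10 Tmem131 (0.98), of Cxcl11 Glg1 (0.99) and of Cxcl16 Fau (0.99). Each was picked as the highest of all these genes.

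Other genes of the pathway were read from the same fit. Of 7 other CXC ligands (Pf4, Ppbp, Cxcl5, Cxcl12, Cxcl14, Cxcl15 and Cxcl17), 4 were tested. None of them passed the threshold or had groups that did not overlap, against 3.07% and 8.44% of all genes. An unadjusted p under 0.05 occurred in 0 of them, against 3.98%. With so few genes tested, none is close to those shares. Pf4, a platelet chemokine also made by macrophages, was the most abundant of them at 187.5 ± 58.3 and 135.8 ± 20.2 normalized counts (log2 fold change -0.46). Of 8 receptors of CXC chemokines only Cxcr2 was tested, at 36.2 ± 9.9 and 33.9 ± 11.3 (log2 fold change -0.09). Cxcr3, Cxcr4, Cxcr5 and Cxcr6 were under the filter, and Cxcr1, Ackr1 and Ackr3 had 0 counts in every library. The groups of Cxcr4 did not overlap, but at only 1 to 3 raw counts per library (1.2, 1.0 and 1.2 normalized counts in control and 2.0, 2.9 and 1.5 in M-Δx3,4 BMDMs).

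Among 7 genes of shedding, cleavage and surface binding, Adam10 was the single one past the threshold and the single one whose groups did not overlap, against 3.07% and 8.44% of all genes. Adam10, a metalloprotease that cleaves CXCL16 from the cell surface, had 54.6, 36.8 and 26.7 normalized counts in the control and 79.2, 67.0 and 106.2 in the M-Δx3,4 libraries. Every M-Δx3,4 library was above every control. The log2 fold change was 1.10 (standard error 0.41, unadjusted p = 0.0171, adjusted p = 0.984 in edgeR) and lay between 0.89 and 1.40 with single libraries left out, off the threshold without control replicate 2, control replicate 3 or M-Δx3,4 replicate 3. Its relative Adam17, which cleaves many membrane proteins, had 789.8 ± 500.0 and 1011.7 ± 246.3, with overlapping groups.

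None of 14 genes of induction downstream of LPS passed the threshold (0 with an unadjusted p under 0.05), against 3.07% and 3.98% of all genes. Of the 14, 9 had a log2 fold change below 0, against 50.5% of all genes. The groups did not overlap for 3 of them, against 8.44% of all genes, and these were interferon pathway transcription factors, lower in every M-Δx3,4 library. Irf1 had 2836.5 ± 298.5 and 2108.2 ± 217.0 normalized counts (log2 fold change -0.43, exact permutation p = 0.1). Irf7 had 2277.1 ± 315.0 and 1627.7 ± 226.5 (-0.48) and Stat2 had 211.3 ± 40.0 and 148.1 ± 14.2 (-0.51), also at the smallest exact permutation p of 0.1. Ifnb1, the gene of interferon beta, had 32.3 ± 9.9 and 38.8 ± 5.5 with overlapping groups (0.27).

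Of 10 genes for the decay and stability of chemokine mRNAs none passed the threshold, against 3.07% of all genes. For 1 (Elavl1) the unadjusted p was under 0.05, against 3.98%, and the groups did not overlap for 3, against 8.44%. Elavl1, whose product HuR binds AU-rich elements and stabilizes mRNAs, had 163.9, 165.5 and 243.6 normalized counts in the control and 330.6, 336.0 and 298.8 in the M-Δx3,4 libraries, and all 3 of the latter were the higher ones. Its log2 fold change was 0.75 (standard error 0.32, unadjusted p = 0.0341, adjusted p = 0.984 in edgeR). With 1 library left out it lay between 0.66 and 0.98, and the unadjusted p was under 0.05 only without control replicate 3 and between 0.0612 and 0.126 in the other 5 fits by edgeR. The groups did not overlap either for Zfp36l1 (10.6 ± 3.3 and 19.0 ± 3.9, log2 fold change 0.82) and Khsrp (23.0 ± 4.3 and 13.7 ± 3.9, -0.74), both of which promote the decay of AU-rich mRNAs. Zfp36, the gene of tristetraprolin, had 1327.0 ± 391.9 and 1025.0 ± 118.9 with overlapping groups (-0.37).

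Markers of cells that a BMDM culture could hold were read beside these values. The summed normalized counts of the 7 macrophage markers were 5650.9 to 6282.1 in control and 4714.3 to 6343.3 in M-Δx3,4 BMDMs. Lyz2, whose locus carries the Cre in the M-Δx3,4 cells, had 1993.6 ± 206.4 and 1064.0 ± 244.7 (log2 fold change -0.91, unadjusted p = 0.0089, adjusted p = 0.984 in edgeR). The 8 neutrophil markers summed to 387.1 to 695.1 and 482.2 to 728.2. S100a8, S100a9, Camp and Ngp made up most of that sum, Ltf was lower, Ly6g and Mpo had at most 1.2 and Elane had 0 counts. Of the B-cell genes, Ighm had 62.6 ± 13.9 and 38.7 ± 9.0 normalized counts, with groups that did not overlap (log2 fold change -0.70), and Cd79b had 22.0 ± 4.1 and 29.1 ± 11.5 with overlapping groups. Ms4a1, under the filter, had 2.3, 3.1 and 1.2 in control and 0.0 in all M-Δx3,4 libraries. Of 4 T-cell markers only Cd3d had counts. Dendritic cell markers summed to at most 18.6, stromal ones to at most 43.0 and endothelial ones to at most 99.0. Of the 4 stromal markers 1 (Col3a1) passed the threshold, against 3.07% of all genes. It had 13.9, 6.1 and 0.0 normalized counts in control and 0.0 in all M-Δx3,4 libraries, so the groups overlapped at 0.0. Its unadjusted p was 0.0113 and its adjusted p 0.984 in edgeR (exact permutation p = 0.4), and it passed the filter only through control libraries. Col1a1, Col1a2 and Dcn did not pass the threshold (log2 fold changes -0.06, -0.16 and -1.45). The summed counts given here overlapped between the groups, and the part of these cells in the levels of the CXC chemokines was not tested.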

How the data were processed

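RNA of 3 control and 3 M-Δx3,4 BMDM samples was sequenced with the QuantSeq 3′ mRNA kit (FWD) on Ion Proton. The authors mapped the reads to mm10 with TopHat2 2.1.1 and the remaining reads with Bowtie2 2.3.2 (version as in the submitters' processing notes), and deposited raw counts per 3′ UTR region of Ensembl 90 transcripts, made with metaseqR2 1.3.14 without pooling. The authors also deposited a comparison table, from which only the TPM values of each library were used. Its fold changes, p-values and 18 other per-sample columns were not used. Groups followed the genotype labels.

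Regions were summed per transcript. In R 4.3.3, edgeR 4.0.16 was used with relative log expression factors, keeping transcripts above the median normalized count (4.89) in at least 1 library, and the groups were compared by its quasi-likelihood test, with Benjamini-Hochberg adjustment over 32475 transcripts. The threshold (unadjusted p under 0.05, absolute log2 fold change of at least 1) followed the study's methods, with a single test in place of its combination. Single genes were also compared by exact permutation of log2(normalized count + 1), two-sided. Library totals were 5852374 to 9008878. Alternatives were TMM factors, DESeq2 1.42.0, no filter, 1 transcript per gene, a replicate block and each library left out. The fit was tested on simulated data. All 8 genes with every transcript were named, together with genes of the listed groups that passed the threshold or did not overlap. Other members of a group were named after their values were seen. A marker is not reported here. The members and lists were chosen with earlier results of these data known. 3′ UTR sequences came from GENCODE vM21 transcripts (GRCm38), in which all 20 transcripts were found. No batch is given in the labels.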

Additional observations from a re-analysis of the deposited data

How the results depend on the processing

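Over 11 alternatives for each of the 8 CXC chemokines, 88 in all, 74 kept both the direction and the side of the threshold, 4 lost the threshold (all for Cxcl3), 1 gained it (Cxcl13 without M-Δx3,4 replicate 1) and 9 turned the direction. The turned log2 fold changes were 0.10 for Cxcl1 with a replicate block, 0.84 for Cxcl1, 0.08 for Cxcl10 and 0.24 for Cxcl13 without control replicate 1, -0.23 for Cxcl9 without control replicate 2, -0.17 for Cxcl9 without M-Δx3,4 replicate 1, 0.19 for Cxcl1 and 0.07 for Cxcl10 without M-Δx3,4 replicate 2, and -0.15 for Cxcl11 without M-Δx3,4 replicate 3. With single libraries left out, Cxcl1 ranged from -0.44 to 0.84, Cxcl9 from -0.23 to 0.53, Cxcl10 from -0.11 to 0.08, Cxcl11 from -0.15 to 0.43 and Cxcl13 from -5.54 to 0.24. None of the 9 was past the threshold before or after, and the cause was not tested. The number of CXC chemokine transcripts past the threshold was 1 in every fit with all libraries, always Cxcl3, and 0 to 1 with a library left out, the 0 being without control replicate 3 and without M-Δx3,4 replicate 2. Over all transcripts the number past the threshold was 1071, 696 by DESeq2, 1715 with no filter, 389 with 1 transcript per gene, where fewer features were tested, and 685 with the replicate block. With a library left out, the lowest number was 710 (control replicate 3) and the highest 3224 (control replicate 1). Replicate numbers did not pair the libraries: deviations from the group means correlated at -0.213, 0.537 and -0.309 between libraries of the same number. Between unequal numbers they reached 0.542 for control replicate 1 with M-Δx3,4 replicate 3 and 0.28 for control replicate 3 with M-Δx3,4 replicate 1. The replicate block does not take up such likeness across numbers, and its source was not tested. With that block Cxcl3 had -3.85 (unadjusted p = 0.0471 in edgeR). With 3 libraries per group, changes smaller than the intervals given were not detectable, and for Cxcl3 and Cxcl13 the depth was limiting, at 12 or fewer counts per library.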
